A study of Mus musculus with 3 samples.

Results

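The comparison described here asked what the loss of Blimp-1 changed, across all measured genes, in follicular regulatory T (TFR) cells that also carried a constitutively active NFATc1/αA. It set the library labelled PαA (Nfatc1caaA.Prdm1gfp/fl.FIC) against the library labelled αA (Nfatc1caaA.Prdm1gfp/+.FIC), which are 2 of the 3 libraries of the series. FIC is Foxp3-IRES-Cre, so recombination was directed to Foxp3-expressing cells. Both genotypes carried caNFATc1/αA and 1 gfp reporter allele of Prdm1, so the αA cells had 1 unmodified Prdm1 allele and the second allele of the PαA cells was floxed. The third library, labelled N (Nfatc1fl/fl.Prdm1gfp/+.FIC), carried no caNFATc1/αA and is given beside the values as a level. Mice of either sex on a C57BL/6J background, whose age and number per library are not given in the sources used here, were immunized with 125 µg NP-KLH in alum. They were boosted on day 7 and B220-CD4+BlimpGFP+CXCR5+GITRhi cells from spleen and mesenteric lymph nodes were sorted on day 10 for poly(A) RNA sequencing. The comparison covered 7017 expressed genes of 22044 genes with an exon length, where expressed means an RPKM (exon reads scaled by exon length and library size) above 5 in at least 1 of the 3 libraries.

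Blimp-1, encoded by Prdm1, is a zinc-finger transcription factor that mostly represses its targets and is known as the master regulator of plasma cell differentiation. In regulatory T cells it marks the effector state, and TFR cells are the regulatory T cells that enter B-cell follicles and restrain germinal centre reactions. NFATc1 is a calcineurin-activated factor that acts downstream of the T-cell receptor, and αA is its short inducible isoform.

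With 1 library a genotype there were no replicates, no test was possible and no difference below has a replicate check. Each fold is a ratio of RPKM. Many folds, but not all, are followed by an exact 95% Clopper-Pearson interval from the exon reads of both libraries. This interval covers counting error only, and the reads were amplified by PCR without molecular identifiers. The totals by which the authors scaled RPKM were 27239921 reads in αA, 25465829 in PαA and 29726219 in N, and 3 reads are the limit that a count of 0 allows. Intron reads made up 4.56% of gene reads in αA, 3.29% in PαA and 3.01% in N. In bulk RNA, fewer cells of a type and less RNA per cell cannot be told apart.

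Prdm1 itself had an RPKM of 25.64 in N, 24.86 in αA and 10.02 in PαA. It was 2.48-fold lower in PαA than in αA (interval 2.33 to 2.64), on 1370 against 3635 reads. The files count all exons and both alleles together, so the remaining Prdm1 reads of PαA cannot be assigned to the reporter or to the recombined allele. Nfatc1 stood at 63.60 in N, 62.91 in αA and 32.35 in PαA. The library labelled N, whose genotype is Nfatc1fl/fl, was thus level with αA for this gene, and PαA was 1.94-fold below αA (1.89 to 2.00) although both carried caNFATc1/αA. Nfatc1 reads therefore do not check the labels of N and αA.

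The sorted cell type was present in every library. All 7 T-cell markers listed in the files were expressed, and each was lower in PαA than in αA, with a median log2 ratio of -0.23 (range -0.46 to -0.22). Foxp3, the lineage factor of regulatory T cells, had an RPKM of 32.75 in N, 20.95 in αA and 15.26 in PαA. Cd4 was at 488.1, 396.1 and 340.6, and Ptprc, encoding CD45, at 262.9, 184.8 and 114.8 in the same order. The gated receptors also read lower in PαA than in αA: Cxcr5 went from 81.33 to 47.58 and Tnfrsf18, encoding GITR, from 216.9 to 144.6. These 5 genes all stayed within 2-fold.

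A ratio past 2-fold was found for 325 of the 7017 expressed genes, or 4.63% of those tested. PαA was higher for 153 genes (2.18%) and lower for 172 (2.45%). A ratio above 1 was found for 43.1% of expressed genes and a ratio below 1 for 56.9%. Counts of list members below are to be read against these shares. With the deposited TPM in place of RPKM the split was 120 higher and 263 lower, because TPM shifts the median log2 ratio by -0.165, from -0.06 to -0.23. Most genes differed little: 85.3% of expressed genes were within 1.5-fold, and the quartiles of the log2 ratio were -0.30 and 0.17. Differences in the upward direction reached further, with 46 genes higher and 18 lower past 4-fold, and 20 higher and 7 lower past 8-fold. Those higher past 8-fold include the pancreas gene Amy2a1 and the stromal and endothelial markers Esm1 and Col1a2. They also include Ccr10, whose reads were mostly shared with other sequences. The counts past 4-fold and 8-fold were not repeated without such genes. The whole counting interval lay beyond 2-fold for 109 of the 153 higher and 96 of the 172 lower genes. For 45 of the 325 genes only N exceeded an RPKM of 5. Under 80% of the exon reads were unique for 42 of the higher and 34 of the lower genes, and such genes are named as uncertain below, since reads were shared with near-identical sequences.

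**Figure D1:**
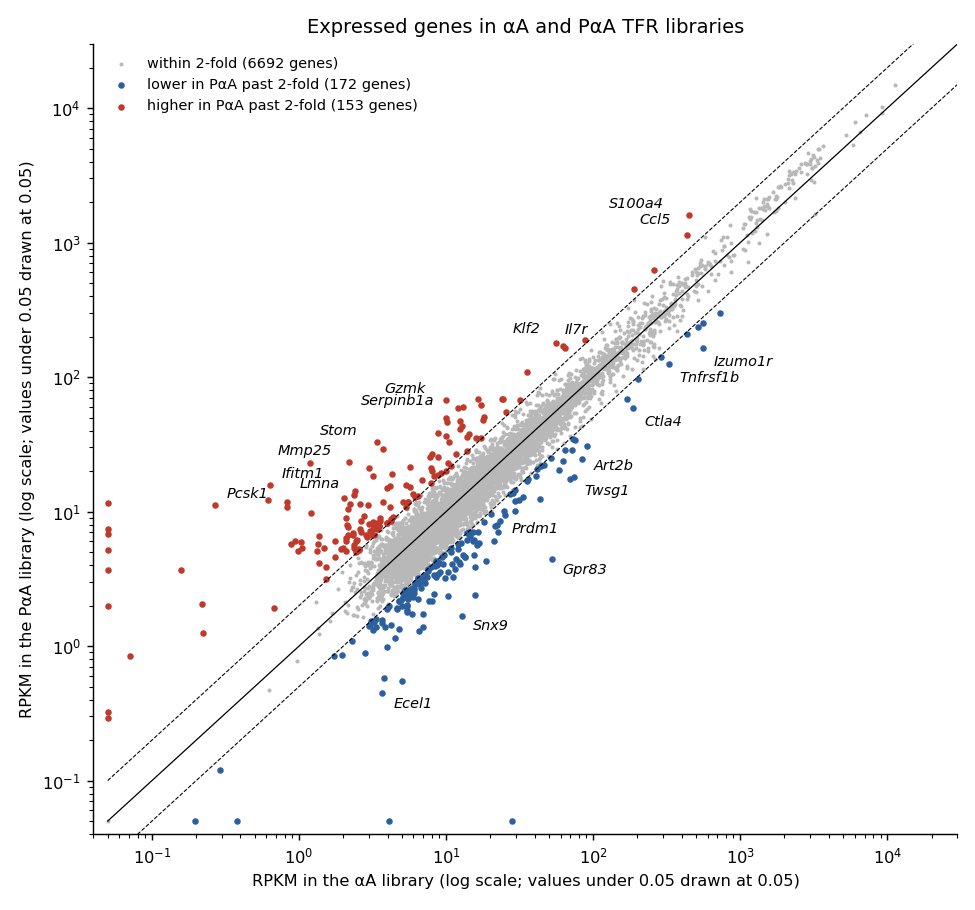
RPKM of each expressed gene in the αA library (horizontal) and the PαA library (vertical), both on log scales, with the line of equality and dashed lines at 2-fold. Red points are the 153 genes higher and blue points the 172 genes lower in PαA past 2-fold, and grey points the 6692 other genes. Pcsk1, Ifitm1, Mmp25 and Stom lie far above the line and Gpr83, Snx9 and Ecel1 far below it.

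Among the genes higher in PαA, those that govern exit from lymphoid tissue and homeostatic survival formed one group. Klf2, a transcription factor that maintains the circulating state of T cells, had an RPKM of 54.35 in N, 55.97 in αA and 178.3 in PαA. PαA was 3.19-fold above αA (3.05 to 3.33), and N and αA were close. S1pr1, the sphingosine-1-phosphate receptor used to leave lymph nodes and a target of Klf2, was at 55.50, 88.02 and 189.0, a 2.15-fold difference (2.09 to 2.21). Il7r, the receptor chain for the survival cytokine IL-7, was at 82.91, 64.16 and 163.7, and was 2.55-fold higher (2.48 to 2.63). Id3, an inhibitor of E proteins, was at 20.06, 16.03 and 35.06, or 2.19-fold higher (1.97 to 2.42). In a list of 21 expressed genes of the naive and central-memory program, these 4 were higher past 2-fold and Itga6 was lower. The median log2 ratio of that list was 0.20 against -0.06 over all expressed genes. The program did not move as a block, since 10 of its 21 members were below a ratio of 1. Of 8 expressed genes described in the literature as repressed by Blimp-1, S1pr1, Id3, Klf2 and Ccr6 were higher past 2-fold and none was lower. The list median was 0.83, and 2.18% of all expressed genes were higher past 2-fold. The list leaves out Cxcr5, which the study describes as repressed by Blimp-1 and on which the cells were gated. Cxcr5 was lower in PαA, with a log2 ratio of -0.77. Nfatc1, whose P1 promoter Blimp-1 limited in the study's reporter assay, is also outside the list and was lower in PαA. This list was chosen with earlier results of these libraries known, so its direction is not independent evidence. S1pr1 and Id3 fell under 2-fold with TPM.

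Receptors for innate-type and type 17 cytokines were a second group. The 3 genes that lie side by side on chromosome 1, between 40429570 and 40551705, were all higher in PαA. Il1rl1, encoding the IL-33 receptor ST2, had an RPKM of 15.85 in N, 3.195 in αA and 8.430 in PαA. Il18r1 and Il18rap encode both chains of the IL-18 receptor. Il18r1 was at 23.90, 14.41 and 37.96 and Il18rap at 7.989, 5.114 and 11.79. The folds over αA were 2.64 (2.40 to 2.91) for Il1rl1, 2.63 (2.50 to 2.78) for Il18r1 and 2.31 (2.10 to 2.53) for Il18rap. For Il1rl1, N was above both other libraries. Il1rl1 is also a marker of ILC2 and mast cells, whose 8 markers summed to 22.21, 4.400 and 9.929, mostly from Il1rl1 itself, and the part of such cells was not tested. Il1r2, the decoy IL-1 receptor of the same cluster, pointed the other way within 2-fold, at 65.50, 33.29 and 19.74. Il23r, a receptor chain for IL-23, was at 0.7301 in N, 2.080 in αA and 6.045 in PαA, and was 2.91-fold higher (2.39 to 3.55). Il9r, the IL-9 receptor, was at 6.076, 1.942 and 5.279, a 2.72-fold difference (2.34 to 3.17) that left PαA below N. In all, 7 of 27 expressed interleukin and interferon receptors were higher past 2-fold (with Il7r and Ifngr2). Il6st, the gp130 chain shared by IL-6 family cytokines, was the single lower one, at 6.847, 16.73 and 5.806. The list median was -0.16, and 17 of the 27 had a ratio below 1, close to the 56.9% of all expressed genes.

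Genes known from type 17 helper cells, grouped after their values were seen, showed both directions. Ccr6, the CCL20 receptor, was at 11.36 in N and 12.47 in αA against 47.19 in PαA, and was 3.78-fold higher (3.48 to 4.12). Ltb4r1, the high-affinity leukotriene B4 receptor, was at 15.18, 17.41 and 62.42. Tmem176b and Tmem176a, neighbouring genes for intracellular cation channels, were at 10.18 and 10.04 in αA and at 46.07 and 36.70 in PαA. Against this, the cytokine Il17a was lower in PαA, on 25 against 55 reads, and Ahr, the aryl hydrocarbon receptor, was 2.11-fold lower (1.88 to 2.38), at 6.174 in αA and 2.923 in PαA. Of the 9 expressed genes of this group, 5 were higher and 2 lower past 2-fold. Both lower genes, Il17a and Ahr, fell under 2-fold with a pseudocount of 1. Il17a also did so with a pseudocount of 0.1 and under TMM factors.

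Proteases, their inhibitors and chemokines were also higher in PαA. Gzmk, a granzyme of trypsin-like specificity, had an RPKM of 79.37 in N, 9.990 in αA and 67.82 in PαA. It was 6.79-fold higher in PαA than in αA (6.09 to 7.59), and N was as high as PαA. Serpinb1a, an inhibitor of neutrophil-type serine proteases, was at 2.380, 12.14 and 58.69, and here N was lowest. Mmp25, a membrane-anchored metalloproteinase, was at 1.356, 2.199 and 23.26, a 10.6-fold difference (9.15 to 12.3). Ccl5 was at 816.0, 432.5 and 1134 and its chromosome 11 neighbour Ccl3 at 25.82, 24.06 and 68.64, 2.62-fold and 2.85-fold above αA. Both are inflammatory chemokines that attract leukocytes. Gzmk and Serpinb1a were the 2 of 18 expressed cytotoxic and granule genes past 2-fold, none was lower, and the list median was 0.23.

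A group of membrane, calcium-binding and nuclear envelope genes was higher in PαA than in both other libraries. Stom, encoding the lipid-raft protein stomatin, was at 4.478 in N, 3.412 in αA and 32.83 in PαA, and was 9.62-fold higher. Emp1, an epithelial membrane protein, was at 3.493, 2.394 and 14.29, a 5.97-fold difference. Lmna, encoding the A-type lamins of the nuclear envelope, was at 1.992, 2.370 and 13.20, or 5.57-fold higher (4.83 to 6.44). For these 3 genes N and αA differed little and PαA stood apart. The S100a genes of chromosome 3 encode small EF-hand calcium-binding proteins. S100a4 was at 378.3, 446.1 and 1602, and S100a6 at 188.1, 190.7 and 453.6. Only 35.4% of S100a4 reads in PαA were unique, while all S100a6 reads were. S100a10 and S100a13 were 1.57-fold and 1.62-fold higher and S100a11 was 1.12-fold lower, so the genes of this locus did not share one ratio. Crip1, a LIM-domain protein, was at 186.6, 257.8 and 626.3. Lmna, S100a4, S100a6 and Crip1 were the 4 of 57 expressed cytoskeleton and motility genes past 2-fold, with a list median of 0.05 that changed sign under TPM.

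Surface receptors that couple to G proteins went both ways. Gpr15, a homing receptor for the large intestine, was at 14.11 in N, 10.05 in αA and 50.07 in PαA, 4.98-fold higher (4.44 to 5.61). Ramp3 and Ramp1, accessory chains of calcitonin-family receptors, were 4.41-fold and 2.08-fold higher. Gpr83, a receptor of regulatory T cells, was at 7.514 in N, 52.40 in αA and 4.424 in PαA. It was 11.8-fold lower in PαA than in αA (10.7 to 13.1), the largest ratio in this direction among well-measured genes, and its high level was confined to the αA library among these 3. F2r, the thrombin receptor PAR1, was at 27.31, 62.81 and 23.90, and was 2.63-fold lower (2.50 to 2.77). Rgs16, which shortens G-protein signals, was at 52.54, 29.52 and 11.97. Gpr55, a lysophospholipid receptor, was at 18.80, 15.83 and 2.406 with 32.8% of its αA reads unique. Of 28 expressed members of this list, 2 were higher (Gpr15 and Rgs2) and 5 lower, with a median of -0.21.

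Processing enzymes for peptide hormones included the highest ratio among well-measured genes with reads in both libraries. Pcsk1, the prohormone convertase PC1/3, was at 3.478 in N, 0.2695 in αA and 11.16 in PαA, on 37 reads in αA and 1433 in PαA. This was a 41.4-fold difference (29.9 to 59.1) with every PαA read unique. Ecel1, a membrane metalloendopeptidase, moved the opposite way, from 3.695 in αA to 0.4447 in PαA. Gcg, the gene of the hormone precursor proglucagon, was listed at 7.466, 24.28 and 68.33, all 1968 of its PαA reads being unique. Proglucagon is made by pancreatic islet and gut cells, and exocrine pancreas genes ran in the same order, with a summed RPKM of 2.321, 21.87 and 108.8. Pcsk1 did not follow that order, being higher in N than in αA. The part of pancreas RNA in these values was not tested. Of 13 expressed genes in the neuropeptide list, Pcsk1, Ramp1 and Ramp3 were higher and Gpr83 and Ecel1 lower.

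**Figure D2:**
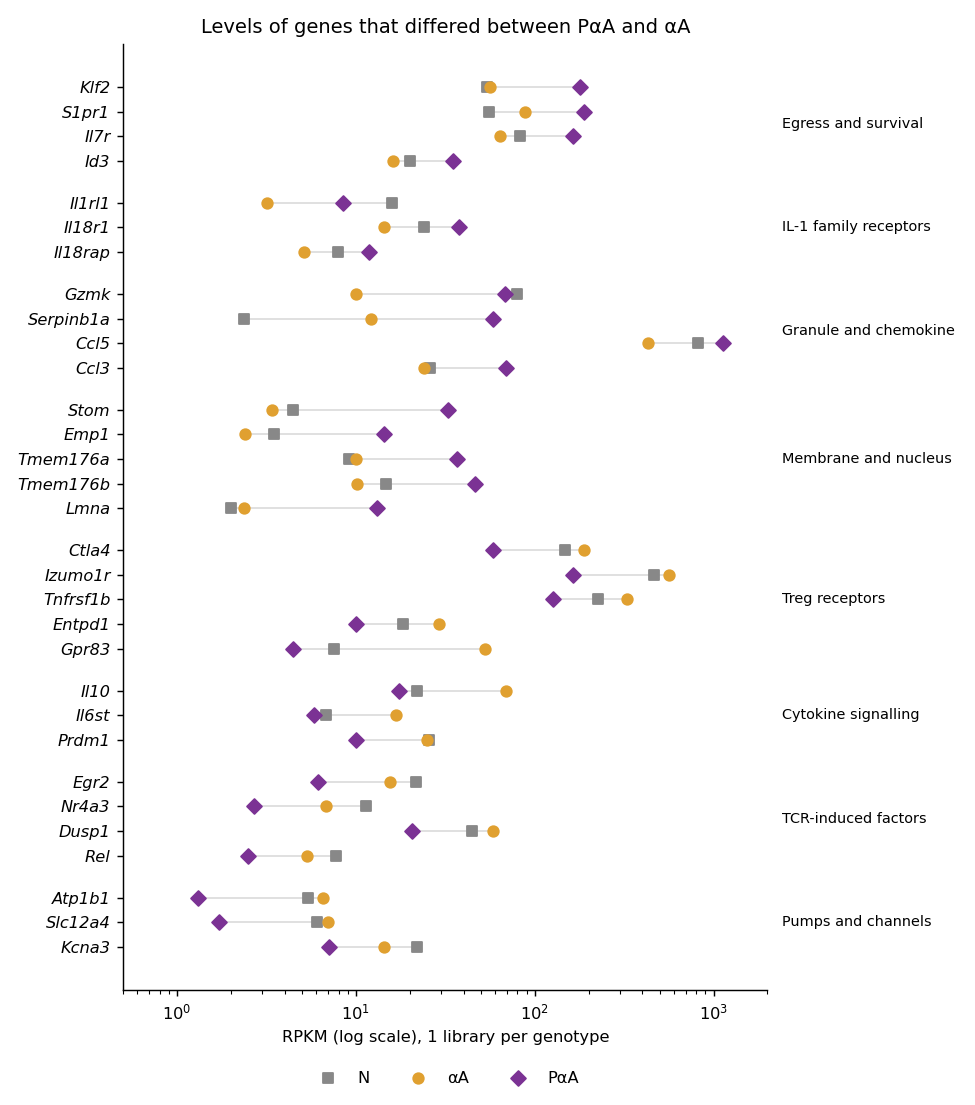
RPKM on a log scale of genes that differed past 2-fold between PαA and αA, by function, with 1 point for each of the N (grey squares), αA (orange circles) and PαA (purple diamonds) libraries. PαA is highest of the 3 for Klf2, Stom, Lmna and Serpinb1a and lowest for Ctla4, Izumo1r, Gpr83 and Atp1b1, whereas Gzmk and Il1rl1 are highest in N.

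Genes of the regulatory T-cell signature made up a large group on the lower side. Of 23 expressed members, 7 were lower past 2-fold and none higher, 20 had a ratio below 1 (56.9% of all expressed genes did), and the median log2 ratio was -0.77. Izumo1r, encoding the folate receptor FR4 of regulatory T cells, was at 462.1 in N, 560.5 in αA and 163.8 in PαA. It was 3.42-fold lower (3.35 to 3.50), and N and αA were both high. Ctla4, the inhibitory receptor that competes for CD80 and CD86, was at 147.7, 188.0 and 58.67. Entpd1, the ectonucleotidase CD39, was at 18.40, 29.21 and 10.05, 2.91-fold lower (2.72 to 3.11). Lrrc32, encoding the TGF-beta docking receptor GARP, was at 9.106, 10.73 and 5.352 and lay at the threshold, at 2.00-fold (1.82 to 2.21). The other lower members were Gpr83, Tnfrsf9 and Tnfrsf1b. Foxp3 and Tnfrsf18 were among those that stayed within 2-fold. The list was chosen with earlier results of these libraries known, so its direction is not independent evidence. Genes of the effector regulatory T-cell state went both ways: of 26 expressed, 4 were higher (Klrg1, S100a6, Il1rl1 and S100a4) and 5 lower (Il10, Prdm1, Ccr8, Tigit and Areg) past 2-fold, 13 had a ratio above 1 and 13 below, and the median was -0.11.

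The tumour necrosis factor receptor family was mostly lower. Tnfrsf1b, encoding TNFR2, which supports regulatory T-cell expansion, was at 224.6 in N, 327.4 in αA and 125.9 in PαA, and was 2.60-fold lower (2.55 to 2.66). Tnfrsf8, encoding CD30, lies beside it on chromosome 4 and was at 14.97, 8.756 and 4.189. Tnfrsf9, encoding 4-1BB, was at 140.5, 91.19 and 30.89 with 23.1% of its αA reads unique. Tnfrsf25, the receptor DR3 for TL1A, was the exception at 17.06, 10.48 and 33.08, 3.16-fold higher (2.86 to 3.49). Of 12 expressed members, 9 had a ratio below 1 (56.9% of all expressed genes did), and the median log2 ratio was -0.56. Past 2-fold, 3 were lower and 1 was higher, against 2.45% and 2.18% of all expressed genes. Tnfrsf8 was no longer past 2-fold under TMM factors or with a pseudocount of 1.

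Among transcription factor and phosphatase genes induced by T-cell receptor signals, those past 2-fold were lower. In the list of AP-1, EGR and NR4A factors with DUSP phosphatases, 5 of 22 expressed genes were lower past 2-fold, none was higher, 4 had a ratio above 1 and the median was -0.40. Egr2 was at 21.65 in N, 15.46 in αA and 6.113 in PαA, 2.53-fold lower (2.29 to 2.80). Nr4a3, an orphan nuclear receptor, was at 11.41, 6.792 and 2.684, and Egr1 at 30.23, 33.43 and 12.93. Dusp1, which dephosphorylates MAP kinases, was at 44.65, 58.65 and 20.52, 2.86-fold lower, and Dusp6 was 2.06-fold lower. The AP-1 genes Fos and Jun were not among them: Fos read 6.67 in αA and 5.89 in PαA, and Jun 5.81 and 6.66. In the NF-kB list, 26 of 29 expressed genes had a ratio below 1 (56.9% of all expressed genes did), with a median of -0.32. Rel, encoding c-Rel, was its 1 gene past 2-fold, at 7.736, 5.315 and 2.504. Malt1, the paracaspase that links the T-cell receptor to NF-kB, was at 18.92, 24.98 and 9.413, 2.65-fold lower (2.49 to 2.83). Trat1, an adaptor that stabilizes the T-cell receptor complex, was at 39.54, 17.98 and 50.64. It was the 1 higher gene among 38 expressed genes of the receptor complex and its proximal signalling, whose median was -0.24.

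In the lists of ion transport and of calcium signalling, 3 genes each were lower past 2-fold and none was higher. Atp1b1, which encodes a beta subunit of the sodium-potassium pump, stood at 5.414 in N, 6.525 in αA and 1.304 in PαA, 5-fold lower (3.99 to 6.33). Slc12a4, a potassium-chloride cotransporter, was at 6.078, 6.968 and 1.718, 4.06-fold lower. Kcna3, the voltage-gated potassium channel Kv1.3 that sustains calcium entry in T cells, was at 21.91, 14.28 and 7.102. Itpr2, a calcium release channel, and Atp2b4, a calcium export pump, were 2.13-fold and 2.08-fold lower. Kcna3 and Atp2b4 lay near the threshold and were no longer past 2-fold when the libraries were scaled by TMM factors. With a pseudocount of 1 added to each RPKM, Kcna3, Atp2b4 and Itpr2 all fell under 2-fold. The 3 lower genes were Kcna3, Itpr2 and Atp2b4 among 31 expressed calcium and calcineurin genes, and Atp1b1, Atp2b4 and Kcna3 among 34 expressed transport genes. Slc12a4 is outside both lists.

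Enzymes, signalling modulators and trafficking proteins were among the other lower genes. Snx9, a sorting nexin of endocytosis, was at 11.18 in N, 12.76 in αA and 1.678 in PαA, 7.61-fold lower (6.19 to 9.43). Twsg1, an extracellular modulator of bone morphogenetic proteins, was at 37.92, 73.60 and 18.15, 4.06-fold lower (3.86 to 4.27). Ephx1, the microsomal epoxide hydrolase, was at 148.6, 168.8 and 68.65. For these genes N lay nearer to αA than to PαA, except Twsg1, for which N was between. Art2b, a surface ADP-ribosyltransferase that uses extracellular NAD, was at 110.7, 84.57 and 24.69, 3.43-fold lower (3.25 to 3.61), and its neighbouring pseudogene Art2a-ps at 22.94, 10.28 and 2.374. Ddc, the decarboxylase that makes dopamine and serotonin, was at 7.152, 3.754 and 0.5816. Art2b and Entpd1 were the 2 lower of 13 expressed purine and nucleotide genes, and none was higher. Among adhesion genes Itga6, Itgav, Plxnd1 and Alcam were lower and Itgb3 and Cd63 higher, of 33 expressed. Itga6 was at 6.652, 13.91 and 6.194.

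Lineage and follicular genes differed mostly by less than 2-fold. Bcl6, Maf, Tcf7, Irf4 and Batf did not pass 2-fold and were chosen for naming after their values were seen. Bcl6, the follicular lineage factor that opposes Blimp-1, was at 9.162 in N, 5.957 in αA and 4.712 in PαA, so it was not higher in PαA. Maf, which supports follicular and IL-10-producing T cells, was at 105.2, 84.50 and 43.27, 1.95-fold lower. Tcf7, encoding TCF-1, was 1.20-fold higher and Irf4, a partner of Blimp-1 in effector cells, 1.46-fold lower, while Batf read 130.8 in αA and 135.5 in PαA. Of 38 expressed T-lineage factors, Rel and Ahr were lower past 2-fold, none was higher and the median was -0.24. In the follicular helper program 16 of 21 expressed genes had a ratio below 1, with a median of -0.34. Over all expressed genes 56.9% had a ratio below 1. Its 1 gene past 2-fold, Angptl2, had 6.18% unique reads in αA. Of 38 expressed genes of DNA methylation and chromatin, 30 had a ratio below 1, with a median of -0.17. These are long genes, with a median exon length of 5103 bases, and expressed genes of 4874 bases or more had a median of -0.23. The part of length was not tested. The histone demethylase gene Kdm6b was the 1 past 2-fold, at 9.434, 5.307 and 2.384. Chemokine and lipid chemoattractant receptors split into 4 higher and 3 lower of 19 expressed. The largest of these ratios, for Ccr10, rested on reads of which 5.87% were unique in PαA.

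Of 31 expressed cytokine and growth factor genes, 3 were higher and 3 lower past 2-fold, and the median log2 ratio was -0.08. Over all expressed genes these shares were 2.18% and 2.45%. Il10 was at 22.06 in N, 69.39 in αA and 17.42 in PαA, 3.98-fold lower (3.64 to 4.37). Areg, encoding amphiregulin, was at 7.974, 2.296 and 1.099 on 76 reads in αA and 34 in PαA, too few to place it clearly past 2-fold (1.38 to 3.23). Tnfsf14, encoding LIGHT, was on the higher side at 17.08, 13.84 and 35.93.

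Several large gene classes shifted by less than 2-fold with most of their members on one side. All 78 expressed ribosomal protein genes had a higher RPKM in PαA, with a median log2 ratio of 0.40 and a range of 0.08 to 0.68. None passed 2-fold. With TPM the median was 0.23, and the TPM shift of -0.165 is larger than the lowest of these ratios, so not all 78 stayed higher. The 81 genes found took up 15.1% of exon reads in αA and 19.4% in PαA. Of 81 expressed nuclear genes of oxidative phosphorylation, 72 had a ratio above 1 (43.1% of all expressed genes did), with a median of 0.20 that was 0.04 under TPM. All 8 expressed GIMAP genes, which encode GTPases of lymphocyte survival, were lower, with a median of -0.44. Gimap7 was the 1 past 2-fold, with 4.82% of its αA reads unique. Of 57 expressed interferon-stimulated genes, 43 had a ratio below 1 (56.9% of all expressed genes did). Slfn8 was the 1 past 2-fold, and the list median was -0.24. Glycolysis (18 expressed), cholesterol and fatty acid synthesis (31), unfolded protein and ER chaperones (30) and the proteasome (38) had no member past 2-fold and medians between -0.15 and 0.08. Cdc25b was the 1 of 31 cell cycle genes past 2-fold, at 25.46 in αA and 54.90 in PαA.

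Gene length moved with these shifts. With expressed genes split by exon length into 5 bins of like size, the median log2 ratio went from 0.14 in the shortest bin to -0.23 in the longest. The ribosomal protein and oxidative phosphorylation genes have median exon lengths of 969 and 1125 bases, against 2966 bases over all expressed genes, and the part of length in their shift was not tested. Some lists with negative medians hold long genes. Their median exon lengths were 5103 bases for chromatin, 4784 for calcium signalling, 4034 for T-lineage factors and 3989 for the regulatory T-cell signature. The part of length in those lists was not tested either. Higher genes were 76 and lower genes 26 in the shortest bin, and 9 and 42 in the longest.

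**Figure D3:**
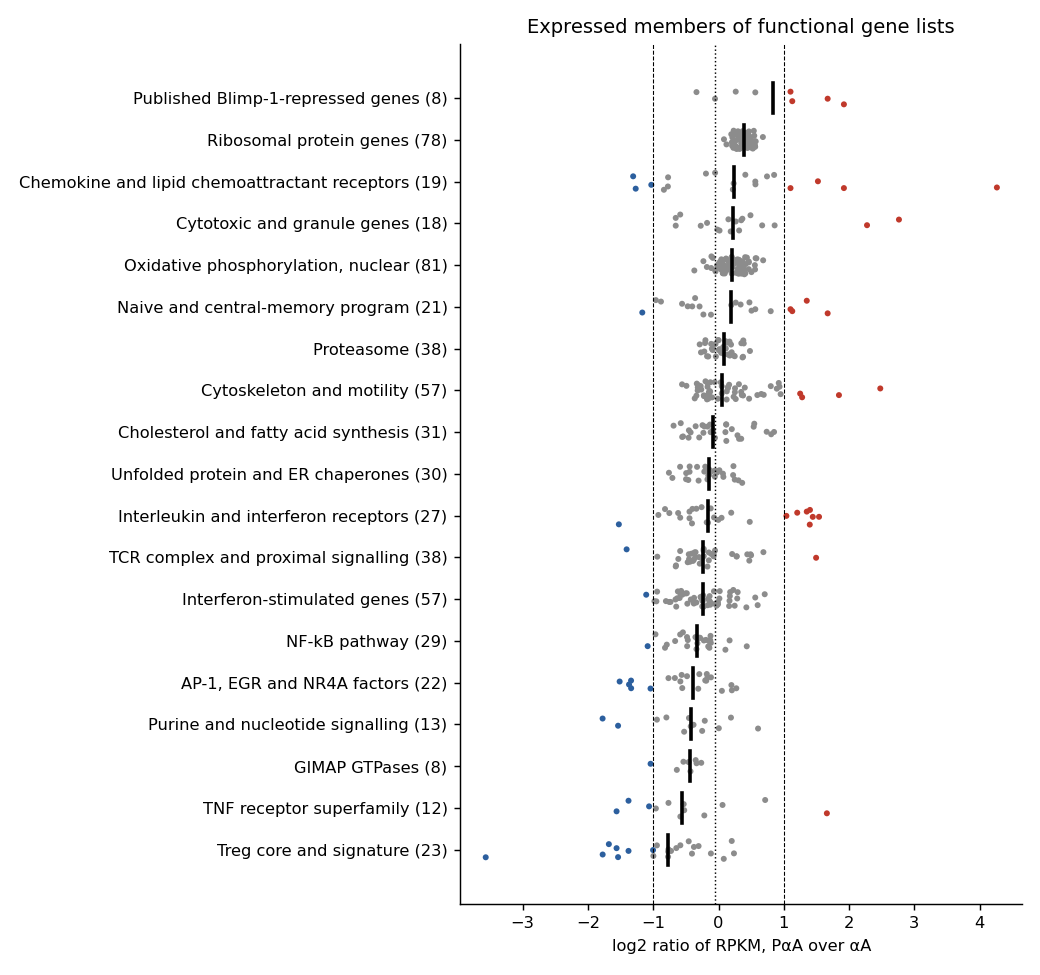
Log2 ratio of RPKM, PαA over αA, for the expressed members of functional gene lists (number of members in parentheses), 1 point a gene, with the list median as a black bar. Dashed lines mark 2-fold and the dotted line the median of all expressed genes at -0.06. Ribosomal protein genes lie to the right of 0 without exception, and the regulatory T-cell signature has the lowest median, -0.77.

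Differences were shared by neighbours at several loci. Among expressed genes ordered along the chromosomes there were 18 runs of at least 2 adjacent genes past 2-fold in the same direction. The longest held S100a4, S100a6, S100a8 and S100a9 (chromosome 3, 90603771 to 90695721, GRCm38). Of these, S100a8 and S100a9 are neutrophil markers, on 11 and 0 reads in αA against 147 and 153 in PαA, and the summed neutrophil markers were at 12.72 in αA and 31.86 in PαA. Of the S100a4 reads in PαA 35.4% were unique. Gpr83 and Izumo1r, both of the regulatory T-cell signature, are neighbours on chromosome 9 within 43.7 kb and were both lower. F2r and F2rl2 on chromosome 13, and Tnfrsf1b and Tnfrsf8 on chromosome 4, were also lower as neighbours, although 3.71% of the F2rl2 reads were unique. The higher pairs included Ccl5 and Ccl3, Tmem176b and Tmem176a, and Ifitm2 and Ifitm1. Ifitm1, an interferon-inducible transmembrane protein that restricts viral entry, had an RPKM of 0.9225 in N, 0.6376 in αA and 15.65 in PαA, 24.5-fold higher (15.5 to 41.2). Ifitm2 was at 24.40, 13.12 and 60.37, a 4.60-fold difference with 14% of its PαA reads unique, and Ifitm3 was 1.71-fold higher. Some runs joined genes far apart or of doubtful reads, such as the predicted genes Gm10720, Gm10719 and Gm10718, of whose αA reads at most 2.04% were unique. Others held markers of other cells: Try4, Try5 and Prss2 of the exocrine pancreas, Esm1 beside Gzmk, and Retnlg beside Trat1. How many runs would arise without any link between neighbours was not tested.

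**Figure D4:**
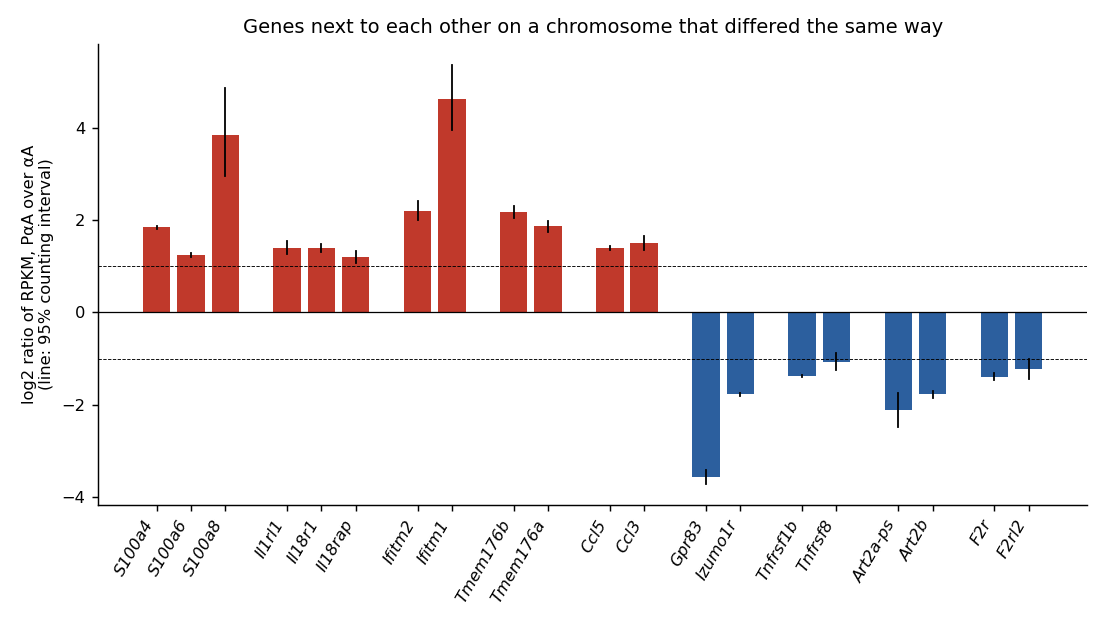
Log2 ratio of RPKM, PαA over αA, for pairs and trios of neighbouring genes past 2-fold in the same direction (bars; black lines are 95% counting intervals, dashed lines mark 2-fold). The interleukin receptor trio of Il1rl1, Il18r1 and Il18rap has similar bars between 1.20 and 1.40, while Ifitm1 and Gpr83 exceed their neighbours.

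The promoters of genes past 2-fold were searched for letters typical of a Blimp-1 recognition sequence, AGNGAAAG, on both strands of the 250 bases before each RefSeq start (GRCm38.p6). It was found for 427 of 5546 expressed genes with a promoter in the table, or 7.70%. The share was 5.26% (6 of 114) for higher and 8.66% (11 of 127) for lower genes, so neither direction stood far from the share of all expressed genes. The windows of Klf2, Id3, Ccr6 and Prdm1 did not hold these letters. A match is a description of letters and does not show binding. The windows below are shown because Ifitm1 and Ifitm2 are neighbours that were both higher and only that of Ifitm2 holds the letters, while Slc12a4 and Mt2 are examples among the lower genes. Mt2, encoding a metallothionein, was at 5.492 in N, 4.807 in αA and 1.336 in PαA, on 77 reads in αA and 20 in PαA. Capitals mark matches, which read AGNGAAAG or, on the opposite strand in Slc12a4, its reverse complement. They lie 31 to 24 bases before the start in Ifitm2, 221 to 214 in Slc12a4 and 93 to 86 in Mt2. The windows are chr7:140967826-140968075 (plus strand, Ifitm1), chr7:140955962-140956211 (minus, Ifitm2), chr8:105966116-105966365 (minus, Slc12a4) and chr8:94172368-94172617 (plus, Mt2), each written 5′ to 3′ in the direction of the gene.
Ifitm1: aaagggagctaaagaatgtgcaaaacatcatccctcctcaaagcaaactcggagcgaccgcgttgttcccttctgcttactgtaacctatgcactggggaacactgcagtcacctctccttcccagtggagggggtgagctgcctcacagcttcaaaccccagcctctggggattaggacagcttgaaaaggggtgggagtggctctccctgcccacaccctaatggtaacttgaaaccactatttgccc
Ifitm2: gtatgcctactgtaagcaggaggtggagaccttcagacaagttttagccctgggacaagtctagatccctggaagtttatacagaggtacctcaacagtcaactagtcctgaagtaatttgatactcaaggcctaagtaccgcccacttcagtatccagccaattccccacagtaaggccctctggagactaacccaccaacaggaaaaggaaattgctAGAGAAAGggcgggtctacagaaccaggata
Slc12a4: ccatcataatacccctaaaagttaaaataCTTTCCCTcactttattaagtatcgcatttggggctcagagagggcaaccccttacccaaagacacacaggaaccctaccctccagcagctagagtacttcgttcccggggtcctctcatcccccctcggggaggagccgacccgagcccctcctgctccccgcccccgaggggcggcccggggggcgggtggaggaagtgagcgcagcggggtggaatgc
Mt2: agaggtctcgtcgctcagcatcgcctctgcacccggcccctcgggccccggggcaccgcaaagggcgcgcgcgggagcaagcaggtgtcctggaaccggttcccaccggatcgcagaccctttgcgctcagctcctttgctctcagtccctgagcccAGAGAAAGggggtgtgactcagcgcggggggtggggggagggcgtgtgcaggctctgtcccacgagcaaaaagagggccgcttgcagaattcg

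Reads in introns, which come largely from unspliced RNA, gave another readout of the same libraries. Over 4976 expressed genes with at least 20 intron reads, the median intron log2 ratio was -0.31, against -0.09 for the exon reads of the same genes, so intron ratios are read against that shift. The median intron ratio was 0.33 for 70 higher genes and -0.99 for 119 lower genes. Set against the median of -0.31, a reference for the counts chosen after seeing the data, the intron interval lay wholly below it for 71 of the 119 lower genes (59.7%) and wholly above it for 12 (10.1%). Among the 70 higher genes 29 (41.4%) lay wholly above it and 13 (18.6%) wholly below. Over all 4976 genes 27.1% lay wholly above and 26.6% wholly below. Total intron reads were used, so reads shared with other sequences were counted. The 119 lower genes include repeat-like predicted genes such as Gm10801, with 4362 intron reads in αA and 1717 in PαA. Set against 0, 86 lower genes lay below and 7 above, and 23 higher genes lay above and 20 below, where 38.7% of all 4976 genes lay below and 17% above. Genes whose introns and exons went together included Il10, with 438 intron reads in αA and 47 in PαA (log2 ratio -3.12), Izumo1r (1767 and 420, -1.98) and Tigit (1966 and 790, -1.22). On the higher side they included Gzmk (53 and 144, 1.54), Il18r1 (133 and 413, 1.73) and Il7r (288 and 544, 1.02). Other higher genes went apart, such as Cx3cr1, with 153 and 31 intron reads (-2.21) beside an exon ratio of 1.52. Klf2, Il1rl1 and Il23r had intron log2 ratios of -0.265, -0.073 and -0.125, with intervals that hold both 0 and the median intron ratio. Prdm1 went apart: its intron reads were 165 in αA and 207 in PαA, which gave 0.42 on the log2 scale (0.12 to 0.73), while its exon ratio was -1.31. Ctla4 had 949 and 675 intron reads, a log2 ratio of -0.39 whose interval (-0.54 to -0.25) holds the median intron ratio, beside an exon ratio of -1.68.

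**Figure D5:**
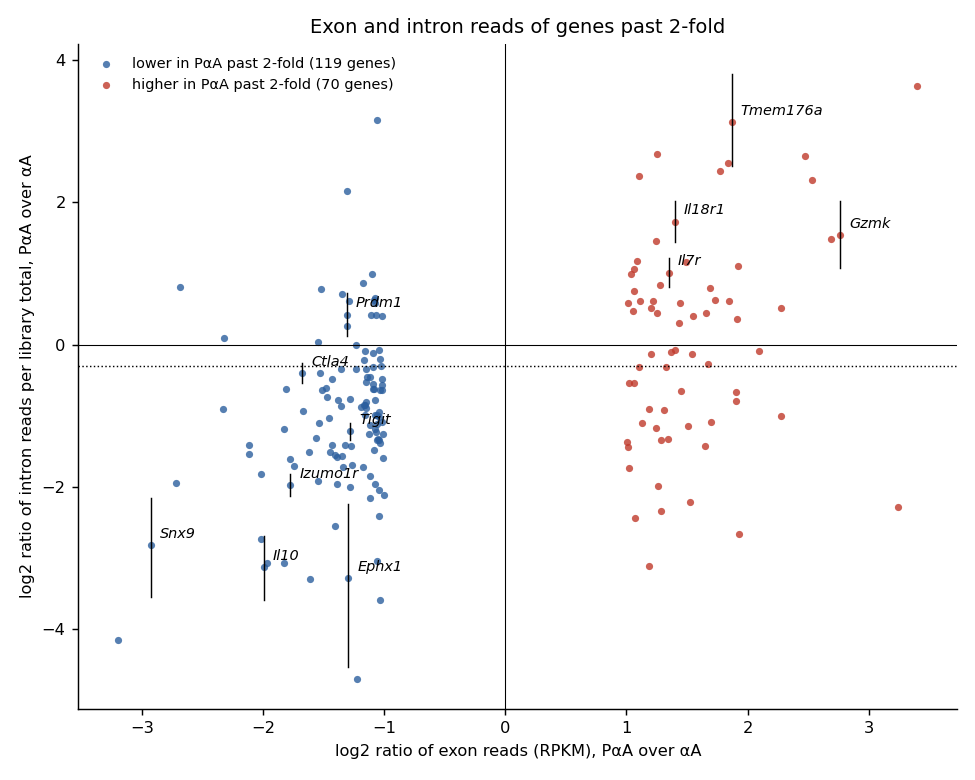
Log2 ratio of exon reads (horizontal) and of intron reads per library total (vertical), PαA over αA, for the 70 higher (red) and 119 lower (blue) genes with intron reads in both libraries. Black lines are 95% counting intervals of the named genes and the dotted line is the median intron ratio of expressed genes, -0.31. Prdm1 has a negative exon ratio and an intron ratio above 0, while Il10 and Izumo1r are negative in both.

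Markers of other cell types were present at levels from close to absent to high, and some differed between the libraries. Erythroid and platelet markers had summed RPKM of 574.3 in N, 2411 in αA and 2158 in PαA. The T-cell markers summed to 3302, 3660 and 2905 in the same order. B-cell markers were close to absent, with a summed RPKM of 23.3 in N, 16.92 in αA and 17.78 in PαA over 11 genes. Monocyte and macrophage markers were at similar sums, 695.9, 689.3 and 700.7 over 17 genes. Neutrophil markers summed to 47.85 in N, 12.72 in αA and 31.86 in PαA over 13 genes, of which 9 were at 0 in αA and 5 in PαA. S100a9, a neutrophil calgranulin, was listed at 0 in αA and 11.51 in PαA, at least 54.6-fold higher against 3 reads in αA, and N was higher still at 15.14. The macrophage gene Arg1 was likewise listed at 0 in αA and at 5.158 in PαA. Stromal and endothelial markers summed to 49.86, 11.22 and 23.84 over 10 genes, 1 of them at 0 in αA, and 4 of the 5 expressed ones were higher in PαA past 2-fold. Digestive enzymes of the exocrine pancreas, a list added after their values were seen, summed to 2.321, 21.87 and 108.8 over 28 genes. In N 25 of these were at 0, and all 7 expressed ones were higher in PαA than in αA, led in unique reads by Ctrb1, encoding chymotrypsinogen, at 2.969 in αA and 21.11 in PαA. In all, 18 of the 153 higher and 3 of the 172 lower genes mark other cell types or the exocrine pancreas. Without these and without genes under 80% unique reads, 98 genes were higher and 135 lower, an alternative chosen after seeing the data. The part of such RNA in the differences above was not tested.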

How the data were processed

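The series holds 1 RNA-seq library for each of 3 genotypes of sorted TFR cells, mapped by the authors with CLC Genomics Workbench at default settings to GRCm38, a build also given in the submitters' processing notes. The authors deposited, per gene, whole-number counts of reads in exons and introns, in total and uniquely mapped,, and the authors' RPKM and TPM values (per the file headers, with a decimal comma). Library totals were recovered from exon reads and RPKM. Of 25759 genes, 22044 had an exon length, and 3715 without one, among them the long noncoding RNAs listed, were not analysed here.

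Counted genes had a ratio above 2 either way and passed an RPKM of 5 in 1 library or more, after the level filter and fold of the study. No test was run, since each genotype has 1 library. Exact Clopper-Pearson 95% intervals of the ratios were computed from total exon reads and are printed for many of them, and 3 reads stand for a count of 0. Intervals and floors cover counting error only. Named genes were the targeted genes and sort markers, in each direction the 25 largest ratios (at least 100 unique reads and 80% unique in the higher library) and the 15 largest RPKM differences, members of functional lists past 2-fold (or, where a list had none, its 2 largest), and members of neighbouring runs. A few further genes, such as Fos and Jun, were named after their values were seen. Some genes that the rule named are not reported here. The members and lists were chosen with earlier results of these data known, and 6 lists were added here. Alternatives were TPM, median-of-ratios size factors, TMM factors from edgeR 4.0.16 (R 4.3.3), unique reads, pseudocounts of 1 and 0.1, and other level, fold and read thresholds. Interval and call scripts (Python 3.11.15, scipy 1.17.1) were tested on simulated data. Promoter sequences are from RefSeq on GRCm38.p6, and 5546 of 7017 expressed genes matched by symbol.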

Additional observations from a re-analysis of the deposited data

How the results depend on the processing

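The counts of genes past 2-fold (325 in all, 153 higher and 172 lower in PαA) stayed within 1.5 times under TMM factors, size factors, unique exon reads, a pseudocount of 0.1, the level filter on αA and PαA alone and a minimum of 100 exon reads. TPM gave 263 lower genes, because it shifts the median ratio. A pseudocount of 1 gave 215 in all and 101 lower. The level filter set the counts most: RPKM above 1 gave 1016 (448 higher, 568 lower), above 10 gave 171 (85 and 86), and no filter gave 5365 (1772 and 3593). A fold of 1.5 gave 1033 (388 and 645) and a fold of 3 gave 110 (72 and 38). Leaving out genes under 80% unique reads, markers of other cell types and exocrine pancreas, a choice made after seeing the data, gave 98 higher genes. No named gene past 2-fold changed sign under any alternative run, but 9 of 145 were no longer past 2-fold under TPM, 15 under TMM factors, 4 with unique reads and 24 with a pseudocount of 1. The median log2 ratio of 9 of 52 lists changed sign under TPM and of 6 under TMM factors. Among those 9 were translation factors, proteasome, TCA cycle and mitochondrial oxidative phosphorylation genes. No replicate could be left out and no paired analysis was possible because each genotype has 1 library.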

Other observations

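Clock genes, listed after their values were seen, held 2 of 9 expressed members past 2-fold. Nr1d1, encoding the clock repressor REV-ERBα, had an RPKM of 1.669 in N, 2.037 in αA and 12.54 in PαA, 6.16-fold above αA (95% counting interval 5.17 to 7.37). Hlf, a clock output factor, was at 5.128, 2.089 and 5.100. The others stayed within 2-fold: Dbp read 9.33 in αA and 9.79 in PαA, and Per1 8.07 and 6.92. The list median was 0.10.

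Single surface molecules outside the groups above were also higher in PαA. Cd7, an immunoglobulin-family receptor of T and NK cells, was at 10.11, 16.45 and 68.18, 4.14-fold higher (3.73 to 4.61). Sdc1, encoding the plasma cell marker syndecan-1, was at 0.7441, 1.026 and 5.972, 5.82-fold higher (4.64 to 7.36). Jchain, another plasma cell marker, was 1.62-fold higher, at 44.27, 58.43 and 94.77. The plasma cell markers found in the files summed to 68.56, 86.92 and 129.2 over 6 genes, and their part in the Sdc1 difference was not tested.

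Erythroid and platelet markers summed to an RPKM of 574.3 in N, 2411 in αA and 2158 in PαA over 10 genes, with none past 2-fold between PαA and αA. A set of 12 predicted repeat-like genes, chosen after their values were seen, was lower in PαA throughout, with a summed RPKM of 1121, 5163 and 2527 and 6 members past 2-fold. Many of the reads of some members were shared with other sequences, so their levels are uncertain: of the reads in αA, 42.1% were unique for Gm10800 and 66.5% for Gm10801. Markers of dendritic cells summed to 74.92, 92.11 and 93.91, of CD8 and NK cells to 86.45, 30.62 and 30.59, and of ILC2 and mast cells to 22.21, 4.400 and 9.929.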
